A study of Mus musculus with 2 samples.

Results

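Within the Sox1-GFP+ cells sorted from mouse tail, 112 cells carried a small set of genes that mark newly born spinal cord interneurons. They made up 5.70% of the 1964 tail cells that were kept (exact binomial 95% interval 4.72 to 6.82%) and belonged to a series of 9952 kept cells in all. The cells were chosen by their transcripts. A member was a kept tail cell with a molecule of at least 2 of the 7 rule genes Robo3, Nhlh1, Nhlh2, Neurod1, Slc17a6, Ebf2 and Lbx1 and with fewer than 2 of the 6 excluding genes Pkd2l1, Tal1, Gata2, Gata3, Pkd1l2 and Slc32a1, which mark neurons that contact the cerebrospinal fluid. The members were compared with the 1852 other kept tail cells, 125 of which carried 2 or more excluding genes.

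The series holds 1 library of Sox1-GFP+ cells from postnatal tail and 1 from adult brain, both freshly isolated by flow cytometry from mice that carry a GFP reporter of Sox1, a transcription factor of neural progenitors. GFP protein was the property sorted on, and the number of mice behind each library is not given in the sources used here. Tissue, age and library differ together and cannot be told apart. RNA molecules were counted per cell with molecular identifiers. With 1 library per tissue there was no replicate and no test. The intervals are 95% and cover counting error only, and every value describes these libraries.

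In the developing spinal cord, dividing progenitors leave the cell cycle, switch on short-lived neurogenic factors and settle into interneuron classes, each with its own set of homeodomain factors. Nhlh1, Nhlh2 and Neurod1 encode basic helix-loop-helix factors of early neuronal differentiation, and Ebf2 encodes a factor of the same phase. Robo3 encodes an axon guidance receptor best known from commissural neurons, whose axons cross the midline. Slc17a6 encodes the vesicular glutamate transporter VGLUT2, and Lbx1 a homeodomain factor of dorsal interneurons.

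The members had a median of 1341 molecules per cell (range 406 to 2318) and 922.5 genes, against 1274.5 molecules and 823 genes in the other kept tail cells. They held 154166 molecules together, so that 3 molecules, the most that a count of 0 allows here, amount to 19.5 CPM (molecules per 1000000). The 125 cells with 2 or more excluding genes had a median of 1584 molecules. The tail and brain libraries shared 18 barcode numbers among kept cells, none of them a member's. Xist, the X-inactivation transcript of female cells, was found in 37 members and a Y-linked transcript in 17, with no member carrying both.

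Of the members, 27 carried 2 rule genes, 33 carried 3, 30 carried 4, 18 carried 5 and 4 carried 6. Nhlh2 was the most widespread, with 261 molecules in 87 members, and reached up to 13 molecules in a cell. Robo3 had 267 molecules in 62 members, with 1 to 17 molecules (median 4) in the cells that had any. Ebf2 was found in 72 members (123 molecules), Nhlh1 in 60 (98), Slc17a6 in 39 (78), Neurod1 in 37 (60) and Lbx1 in 30 (37). These values chose the cells and are a description. All other kept tail cells together held 8 molecules of Robo3 in 2 cells and no molecule of Slc17a6. Of the excluding genes, Slc32a1 alone was present, with 10 molecules in 7 members, and the other 5 were at 0.

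Just outside the rule stood the 45 cells with 1 rule gene and fewer than 2 excluding genes. In 27 of them that gene was Ebf2. Elavl4, a neuronal RNA-binding protein gene, was found in 46.7% of these 45 cells, in 70.4% of the 27 members with 2 rule genes and in 8.32% of the 1682 cells with none. Col1a1, a collagen gene of fibroblasts, was found in 33.3% of the cells with 1 rule gene and in 0% of the members with 2, 3 or 4. Among 140 tail cells with at least 4 of 6 fibroblast markers, a type not known for the other rule genes, Ebf2 was found in 14 cells and each of the other 6 rule genes in none, which allows a share of up to 2.14%. Those 140 cells were deeper than the members, with a median of 2145.5 molecules.

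The rule genes were also found in cells that had been chosen without them. All of them had been picked with earlier results of these data known, so the shares below are a description and not independent support. For each rule gene, cells were chosen by 2 or more of the other 6, and the share carrying the gene left out was counted. Nhlh2 was found in 76 of 101 such cells (75.2%, 65.7 to 83.3%) against 18 of the 1863 other kept cells (0.966%). Ebf2 was found in 62 of 102 cells (60.8%, 50.6 to 70.3%) against 38 of 1862, and Robo3 in 56 of 106 cells (52.8%, 42.9 to 62.6%) against 8 of 1858. Nhlh1 was found in 50 of 102 (49.0%, 39.0 to 59.1%), Slc17a6 in 32 of 105 (30.5%, 21.9 to 40.2%), Neurod1 in 29 of 104 (27.9%, 19.5 to 37.5%) and Lbx1 in 28 of 110 (25.5%, 17.6 to 34.6%). In the other kept cells these 4 genes stood between 0.270% and 0.859%. The intervals of genes next to each other in this order overlapped throughout, so that no order is read between neighbours. With each cell thinned to 600 molecules, the Robo3 share was 40.6% and the Nhlh2 share 59.7%.

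**Figure D1:**
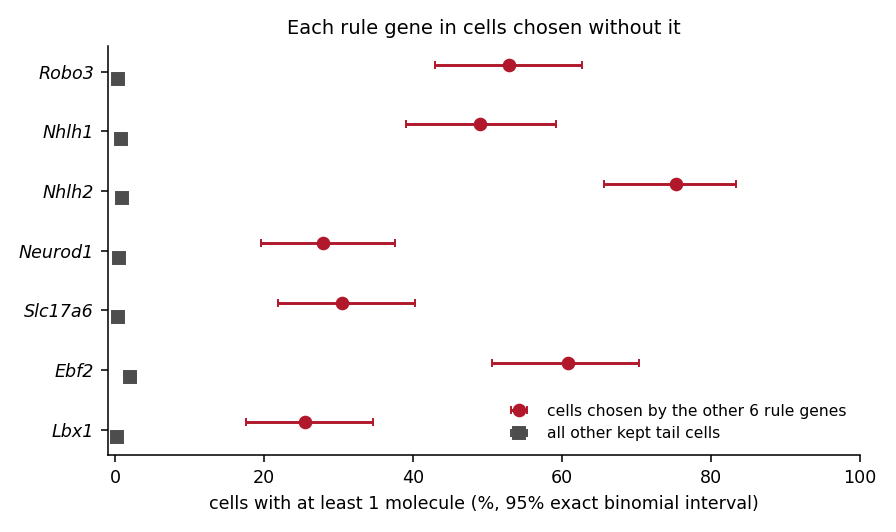
Share of cells with at least 1 molecule of each rule gene (x axis, percent, 95% exact binomial interval) in tail cells chosen by the other 6 rule genes (circles) and in all other kept tail cells (squares). Nhlh2 was found in 75.2% of the cells chosen without it, and no square lies above 2.04%.

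Robo3 spans 37415669 to 37433246 of chromosome 9 (GRCm38, minus strand, GENCODE annotation), Nhlh1 172052292 to 172057573 of chromosome 1 (minus strand), Nhlh2 102010076 to 102015492 of chromosome 3 (plus strand) and Neurod1 79452521 to 79456751 of chromosome 2 (minus strand). The promoters of Robo3, of the 2 paralogs Nhlh1 and Nhlh2, and of Nrgn, whose transcripts were found in members with Robo3, are shown because these genes carry the description that follows. Each is 300 bases, 250 before and 50 after the RefSeq start, written 5′ to 3′ on the gene's strand. Capitals mark the E-boxes CAGCTG and CAGATG, 6-base sites of the kind that basic helix-loop-helix factors bind, the second searched on both strands (CATCTG).
Robo3, chr9:37433126-37433425, minus strand
Robo3: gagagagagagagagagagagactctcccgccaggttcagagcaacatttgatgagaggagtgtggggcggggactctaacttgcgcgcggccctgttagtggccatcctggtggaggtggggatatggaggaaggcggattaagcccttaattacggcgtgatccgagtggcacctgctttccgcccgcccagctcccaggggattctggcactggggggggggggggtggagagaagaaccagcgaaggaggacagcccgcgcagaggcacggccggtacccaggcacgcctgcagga
Nrgn, chr9:37552696-37552995, minus strand
Nrgn: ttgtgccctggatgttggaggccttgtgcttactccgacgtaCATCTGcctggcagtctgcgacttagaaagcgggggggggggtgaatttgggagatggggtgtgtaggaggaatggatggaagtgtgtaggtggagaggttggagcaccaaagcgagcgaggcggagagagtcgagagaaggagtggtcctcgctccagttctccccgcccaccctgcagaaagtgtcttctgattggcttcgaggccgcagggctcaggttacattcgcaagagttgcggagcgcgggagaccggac
Nhlh1, chr1:172057547-172057846, minus strand
Nhlh1: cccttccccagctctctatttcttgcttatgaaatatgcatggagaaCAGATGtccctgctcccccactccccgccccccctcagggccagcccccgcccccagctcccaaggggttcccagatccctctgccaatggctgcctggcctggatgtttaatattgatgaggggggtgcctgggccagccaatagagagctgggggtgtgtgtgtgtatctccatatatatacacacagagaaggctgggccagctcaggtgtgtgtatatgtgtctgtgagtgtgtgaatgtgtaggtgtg
Nhlh2, chr3:102009895-102010194, plus strand
Nhlh2: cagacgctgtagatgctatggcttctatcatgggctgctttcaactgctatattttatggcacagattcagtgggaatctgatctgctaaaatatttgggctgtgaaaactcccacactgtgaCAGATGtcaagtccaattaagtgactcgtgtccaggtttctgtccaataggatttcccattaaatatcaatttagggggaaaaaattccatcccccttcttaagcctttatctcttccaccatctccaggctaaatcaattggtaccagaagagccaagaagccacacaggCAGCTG

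Of these windows, that of Nhlh2 held 1 CAGCTG and 1 CAGATG, those of Nhlh1 and Nrgn held 1 CAGATG or its complement each, and that of Robo3 held neither. Of all 32851 RefSeq promoters of this length, 30.6% held at least 1 of the 2 motifs. Among 21 rule and leading genes looked up, 16 had an entry, with 21 promoters (not Ebf2, Lbx1, Nxph4, Igfbpl1 and Bhlhe22), and 6 of those promoters (28.6%) held one, which is close to the share among all promoters. A match is a run of letters and not a measured site.

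The members carried factors of more than 1 interneuron class. By the homeodomain and paired-domain factors they carried, 75 members fell into 3 groups that shared 1 cell. Lmx1b or Pou4f1 was found in 38 members, Pax2 or Pax8 in 26, and Lhx3 or Lhx4 in 12. A single cell carried genes of the first and second group, and no cell of the third group carried a gene of the others. Lmx1b and Pou4f1 are known from excitatory dorsal interneurons (dI5 and its neighbours), Pax2 and Pax8 from inhibitory ones and from inhibitory ventral classes, and Lhx3 and Lhx4 from ventral classes. Lmx1b, Pou4f1, Pax2 or Pax8 was thus found in 63 members, Lhx3 or Lhx4 in 12 and none of these 6 genes in 37, some of which carried Lbx1 (6 cells), Nkx6-1 (7) or Dbx1 (6). The label of dorsal interneurons was not met by all members, which are called by their rule here. The groups were formed after values had been seen, and no test was made between them.

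In the first group, Lmx1b had 70 molecules in 33 members and Pou4f1 had 68 in 26, with 21 cells carrying both. Outside the members these factors were rare. Lmx1b had 17 molecules in 15 of the 1852 other cells, a level ratio of 71.1 (41.4 to 129), and Pou4f1 had 9 molecules in 6 cells, a ratio of 131 (64.9 to 298). Of the 37 cells of this group without a gene of the second, Slc17a6 was found in 20 (54.1%, 36.9 to 70.5%), Bcl11a, a zinc-finger factor gene, in 22 (59.5%, 42.1 to 75.3%) and Thsd7a in 30 (81.1%, 64.8 to 92.0%). None of the 37 carried Gad1, Gad2, Slc32a1, Lhx5 or Neurod1, which allows a share of up to 8.11% for each. Tlx3, which works together with Lmx1b in excitatory dorsal neurons, had 5 molecules in 4 members, all in this group, and Drgx was at 0.

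In the second group, Pax2 had 47 molecules in 23 members and Pax8 had 31 in 15, with 12 cells carrying both. The level ratio over other kept cells was 28.0 (17.3 to 46.1) for Pax2 and 179 (55.7 to 912) for Pax8, the latter resting on 3 molecules in 3 other cells. Of the 25 cells of this group without a gene of the first, Lhx5 was found in 14 (56%), Gad1, the gene of a GABA-synthesising enzyme, in 11 (44%), Gad2 in 9 (36%) and the GABA and glycine transporter gene Slc32a1 in 6. Slc17a6 was found in none of the 25, which allows up to 12%. Neurod6 was found in 12 of them (48%) against 4 of the 37 cells of the first group (10.8%), and Lamp5 in 12 against 0. Neurod1 and Slc17a6 were rule genes, and Slc32a1 was an excluding gene, so that their spread over the groups was shaped by the choice of cells. Across all members, Slc17a6 was found in 39 (34.8%). It was never found together with Gad1 (13 members), Gad2 (9), Slc32a1 (7), Pax2 (23) or Lhx5 (16). At that share, few joint cells would be looked for with genes as rare as Slc32a1 and Gad2, and their absence says little.

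In the third group, Lhx4 had 20 molecules over all 12 cells and Lhx3 had 5 in 3 of them. The level ratio of Lhx4 over other kept cells was 86.4 (28.9 to 347), resting on 4 molecules in 4 other cells. Lhx3 had no molecule in the other 1852 tail cells and was at least 28.8-fold higher in members with that 0 set at 3 molecules (95% lower limit 15.8). Slc17a6 was found in 10 of the 12 cells (83.3%, 51.6 to 97.9%), the calcium channel subunit gene Cacna2d1 in 10, Neurod1 in 8 and Reln in 7. Lbx1 and the dorsal factor Zic1 were found in none of the 12, which allows up to 25%, against 15 and 22 of the 37 cells with Lmx1b or Pou4f1. Hoxb8 was found in 1 of the 12 (8.33%, 0.211 to 38.5%), against 27 of 37 cells (73.0%, 55.9 to 86.2%) in the first group and 17 of 25 (68%, 46.5 to 85.1%) in the second. The median depths of the 3 groups were 1481, 1319 and 1318 molecules.

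**Figure D2:**
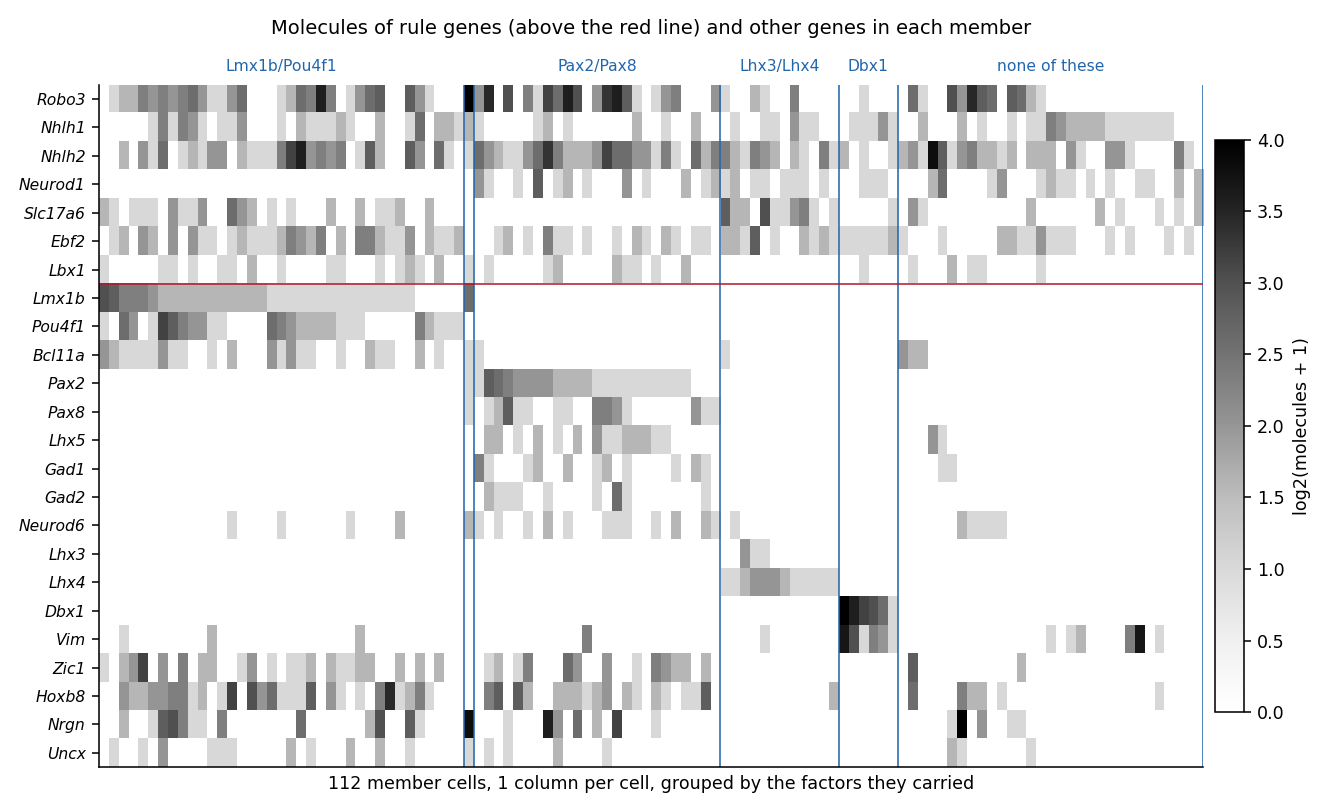
Molecules of 24 genes (rows) in each of the 112 members (columns), shaded as log2 of molecules plus 1 and grouped by the factors carried, with rule genes above the red line. The narrow column between the first and second group is the single cell that carried genes of both, and the 6 Dbx1 cells are all shaded for Vim.

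The remaining 37 members carried none of these factors. Of these, 6 cells carried Dbx1, a factor of progenitors at the middle of the dorsoventral axis, with 49 molecules between them. All 6 also carried Vim, which encodes the intermediate filament of progenitors and glia, and Ebf2, and 5 carried Nhlh1. In the other kept tail cells Dbx1 had 53 molecules in 24 cells. Chodl was found in 15 of these remaining cells and in none of those with Lmx1b or Pou4f1. Otp was found in 7 members (16 molecules), 3 of them in the second group and 3 among the remaining cells, and in no other tail cell. No molecule of Barhl2, Lhx9, Isl1, Evx1, Evx2, Ptf1a, Dmrt3, Wt1, Sim1, Mnx1 or Chat, which mark further dorsal, ventral and motor classes, was found in a member. Such genes may be too sparse for this depth, and a count of 0 allows up to 2.68% of members.

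**Figure D3:**
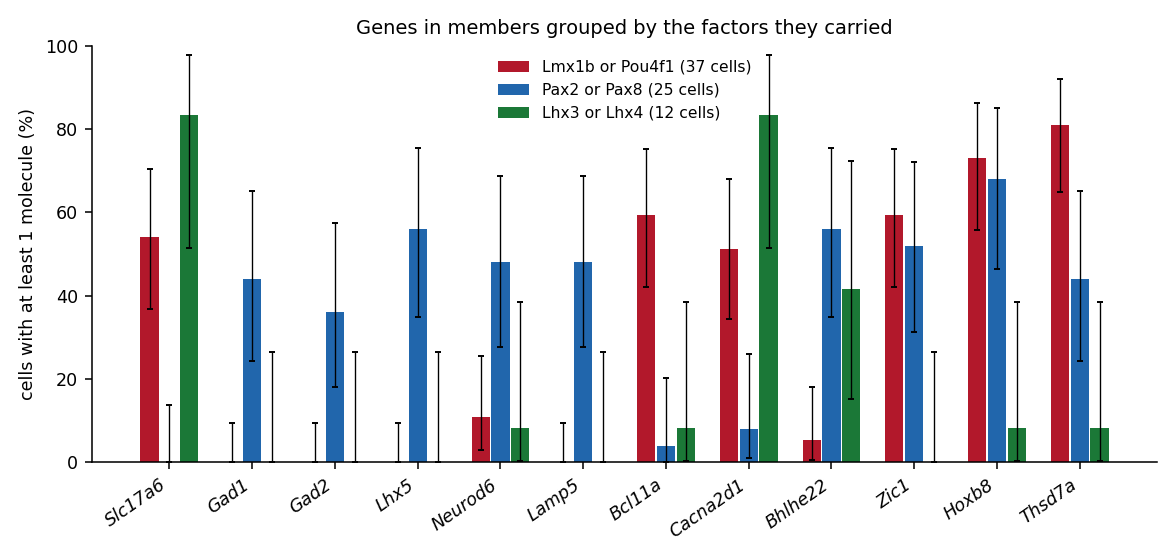
Share of cells with at least 1 molecule (y axis, percent, with 95% exact binomial interval) in members with Lmx1b or Pou4f1 (37 cells), with Pax2 or Pax8 (25) and with Lhx3 or Lhx4 (12). Gad1, Gad2, Lhx5 and Lamp5 have a bar in the second group alone, Slc17a6 has none there, and Hoxb8 stands at 8.33% in the third.

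Nearest neighbours computed without the rule genes, the excluding genes and cell cycle genes placed the members together. On average 76.0% of a member's 15 nearest neighbours were members, which form 5.70% of kept tail cells, and 94 of 112 members had members as most of their neighbours. For other cells the mean was 1.20%. Leiden clustering of the same space put 67 members in 1 cluster of 77 cells, 34 in a cluster of 155 cells that also held 82 cells with 2 or more excluding genes, and 11 in another of 179. All 12 cells with Lhx3 or Lhx4 were among the 34, and 35 of the 38 cells with Lmx1b or Pou4f1 and 24 of the 26 with Pax2 or Pax8 were among the 67. All 6 Dbx1 cells were among the 11. The factors that formed the groups were part of this space, so the placement is not independent of them.

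Gene levels were compared as the ratio of summed CPM in members to that in the other kept tail cells. Over 11070 genes with at least 20 molecules, 15.2% were at least 2-fold higher in members and 28.6% at least 2-fold lower. The rule itself used this contrast, and the shares serve as the background for the lists below. A gene with 20 molecules would have about 1 in the members, so that many low calls rest on a member count of 0. Scaling by a median ratio moved every ratio down by a factor of 1.46 (0.54 on the log2 scale). That median was taken over genes with at least 10 molecules in members. Over all genes tested, the median log2 ratio was 0.14. Ratios between 1 and 1.46 turn direction under the scaling.

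Beside the factors above, the genes with the highest ratios by their lower bound included Nrgn, which encodes a calmodulin-binding postsynaptic protein (98.5, 60.9 to 167), Neurod6 (167, 51.8 to 857), the homeodomain gene Uncx (150, 45.9 to 773), the neurexophilin gene Nxph4 (67.1, 45.7 to 101), Igfbpl1 (43.2, 31.1 to 60.8), the corepressor gene Skor1 (60.5, 26.9 to 154) and Cntn2, which encodes the axonal adhesion protein TAG-1 (44.6, 25.8 to 80.1). Igfbpl1 was found in 60 members and 33 of the 1852 other cells, and Nxph4 in 56 and 30. Auts2 was found in 75 members (225 molecules) and 190 other cells, a ratio of 15.9 (13.2 to 19.1). Hrk, Bhlhe22, Cacna2d1, Fstl5, Mab21l2, Lmo2, Ajap1 and Map3k13 were also among the 25 highest, with ratios between 25.3 and 42.0. C130021I20Rik, a non-coding gene annotated beside Lmx1b (chr2:33641193-33646354, plus strand), had 21 molecules in 16 members, 15 of them in the group with Lmx1b or Pou4f1.

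Genes of neuronal differentiation were higher as a group. Of 17 neurogenic and post-mitotic transcription factors tested, 13 were at least 2-fold higher and 1 lower, with a median log2 ratio of 2.54 against 0.14 over all genes tested (-0.10 without setting genes at 0 to their bound). Sox11 and Sox4, factors of immature neurons, were found in 103 and 101 members, with ratios of 5.795 (5.238 to 6.403) and 3.88 (3.41 to 4.40). Ebf1 had a ratio of 6.99 (5.59 to 8.70), Ebf3 10.3 (7.46 to 14.2) and Onecut2 16.4 (8.29 to 32.4). Neurod2, at 14 molecules in 10 members, had a ratio of 60.5 (18.99 to 252) but fell below the 20 molecules needed to be among the 17 tested.

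Of 21 genes of the neuronal cytoskeleton and RNA binding, 18 were at least 2-fold higher and 1 lower. Ina (alpha-internexin) had a ratio of 8.39 (7.18 to 9.77), Elavl3 8.29 (6.85 to 10.0), Elavl4 6.69 (5.64 to 7.91), Tubb3 6.29 (5.05 to 7.78) and Dcx (doublecortin) 5.41 (4.56 to 6.401). The 1 lower gene was Gap43, which encodes a growth cone protein, with 14 molecules in 9 members and 966 in 177 other cells, 3.99-fold lower (2.37 to 7.34). Of those 966 molecules, 626 lay in the 125 cells with 2 or more excluding genes. In the remaining 1727 cells Gap43 stood at 138.5 CPM and in 5.85% of cells, against 90.8 CPM and 8.04% of members. Of 17 synaptic and excitability genes tested, 12 were higher and 1 lower. Among them were Rbfox1, a splicing factor gene (13.9, 9.85 to 19.7), Rbfox3, which encodes NeuN (13.2, 8.33 to 20.9), Snap25 (4.45, 2.75 to 6.97) and Scn3a (5.58, 3.63 to 8.39). Syt4 was 2.78-fold lower (1.07 to 10.3), with 4 molecules in members. Of these named synaptic genes, the level in members ran from 25.95 CPM for Syt4 to 409 CPM for Rbfox1. In the 6 Dbx1 cells the cytoskeleton list stood at 6687 CPM, against 6627 CPM in other kept tail cells. Their synaptic list stood at 372 CPM (76.6 to 1086) against 632 CPM, and their neurogenic factors at 7182 against 2534 CPM. Of neuropeptide genes, Penk and Pdyn were at 0 in members and had 299 and 114 molecules in other cells, and Adcyap1 had 9 molecules in 8 members.

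Axon guidance receptors were mixed beyond Robo3. Of 16 tested, 5 were at least 2-fold higher and 3 lower, and the summed ratio was 1.64 (1.44 to 1.87). Plxna2, a semaphorin receptor subunit, had a ratio of 6.67 (4.73 to 9.29), Robo1 4.005 (2.17 to 6.97), Ephb1 3.28 (1.98 to 5.20) and Ephb2 2.74 (1.78 to 4.07). Dcc, the netrin receptor with which Robo3 is known to act, had 7 molecules in 6 members and 3 in other cells, a ratio of 40.3 (9.20 to 242). It fell below the 20 molecules needed to be among the 16 tested. Dcc was found in 2 of the 62 members with Robo3 and in 4 of the 50 without, a ratio of 0.29 (0.03 to 1.77). Robo2 had a ratio of 1.08 (0.63 to 1.74). Among adhesion molecules, Nfasc and Ncam1 stood beside Cntn2 on the higher side, at 7.16 (4.47 to 11.2) and 2.13 (1.86 to 2.43). Chl1 and L1cam were 3.02-fold (1.92 to 5.03) and 4.20-fold (1.14 to 34.99) lower. The guidance ligand gene Ntn1 (netrin-1) was 13.2-fold lower (6.68 to 30.6), with 8 molecules in 5 members and 1824 in 735 other cells. Of 12 ligand genes, 2 were higher (Slit1 and Draxin) and 5 lower, against 15.2% and 28.6% of all genes tested.

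Progenitor genes were low. Sox1 itself was found in 3 of 112 members (2.68%, 0.556 to 7.63%) with 3 molecules, against 189 of 1852 other cells. Of those 189 cells, 63 were among the 125 with 2 or more excluding genes. In the remaining 1727 cells the Sox1 share was 7.30% (6.11 to 8.63%), an interval that overlaps that of the members. With each cell thinned to 600 molecules, Sox1 was found in 0 of 111 members and in 5.06% of other cells. Of 17 progenitor genes tested, 8 were at least 2-fold lower and 3 higher. Slc1a3, a glial glutamate transporter gene, was 31.0-fold lower (10.6 to 150), Fabp7 27.3-fold (10.6 to 100), Hes1, a Notch target, 15.1-fold (5.16 to 73.5), Sox2 5.04-fold (2.80 to 10.1) and Vim 6.48-fold (5.02 to 8.53). The 3 higher genes were Zic1 (18.8, 13.7 to 25.6), Zic2 (5.12, 2.01 to 11.6) and Pax3 (5.50, 2.78 to 10.2), which are known from dorsal progenitors and, for Zic1, from their progeny. Hes1 had its 3 molecules in 1 cell. Of 12 cell cycle genes, 10 were lower and none higher, with 13 molecules over all members against 2353 in other cells, 10.5-fold lower (6.12 to 19.7). Mki67, Cdk1, Ccnb1, Ube2c and Birc5 were at 0. Of 7 genes listed for the exit from the cell cycle, among them the cyclin genes Ccnd1 and Ccnd2, 1 was higher and 3 lower. Over all genes tested, the shares were 15.2% and 28.6%. Gadd45a was higher (9.17, 5.47 to 15.04), and Ccnd2 and Ccnd1, D-type cyclin genes that drive the cycle, were lower, 18.5-fold (6.31 to 89.8) and 3.59-fold (1.38 to 13.3). Of 8 Notch ligand and modulator genes, 5 were higher and 1 lower, and the summed ratio of 1.18 (1.01 to 1.39) turns direction under the median-ratio scaling. The Notch ligand gene Dll3 was found in 41 members, with a ratio of 7.39 (5.55 to 9.76).

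Hox genes, whose order along the chromosome follows the body axis, were high in members in groups 4 to 8 and 9 to 13. Molecules were summed over cells, and the overlap of the 2 sets within cells was not counted. Among the 12 cells with Lhx3 or Lhx4, Hoxb13 was found in 6 and Hoxb8 in 1. Of 14 genes of groups 9 to 13 tested, 7 were at least 2-fold higher and none lower, and of 10 genes of groups 4 to 8, 8 were higher and none lower. Hoxb13, the most caudal gene of its cluster, was found in 70 members (118 molecules), with a ratio of 2.93 (2.39 to 3.56), and Hoxc13 in 54 (81 molecules), with 7.86 (5.97 to 10.3). Hoxb8 was found in 51 members (145 molecules), with a ratio of 19.1 (14.99 to 24.4), and Hoxb6 in 55 (111 molecules), with 17.9 (13.6 to 23.6). Hoxb9 had a ratio of 9.49 (6.83 to 13.1). The summed ratio was 7.62 (6.82 to 8.52) for groups 4 to 8 and 3.24 (2.91 to 3.60) for groups 9 to 13. Hoxa13 and Hoxd11 had ratios of 0.71 (0.26 to 1.58) and 1.004 (0.47 to 1.89).

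**Figure D4:**
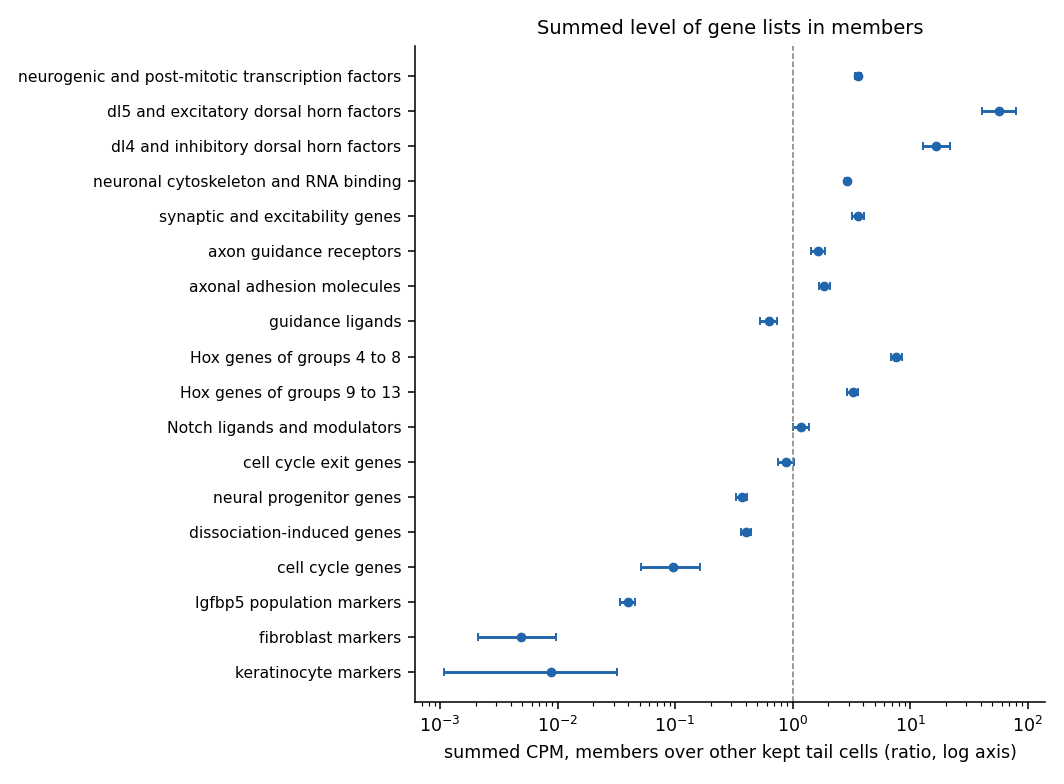
Ratio of the summed CPM of each gene list, members over other kept tail cells (x axis, log scale), with its 95% interval (bars) and a dashed line at 1. Hox genes of groups 4 to 8 stood at 7.62 and cell cycle genes at 0.0954, and the fibroblast and keratinocyte lists lie below 0.01. The cell cycle exit list includes Ccnd1 and Ccnd2, cyclin genes that drive the cycle.

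Markers of fibroblasts, keratinocytes, ependymal cells and macrophages were nearly absent from members. The 6 fibroblast markers had 8 molecules in 6 members and 28138 in other cells, the 6 keratinocyte markers 2 molecules in 2 members, the 7 multiciliated ependymal markers 1 molecule, and the 6 macrophage markers none. Macrophage markers were also rare in other kept tail cells (55 molecules in 8 cells), so their 0 does not set members apart. The highest sum of any of these lists in a single member was 2 molecules. The 8 markers of the Igfbp5 population of the tail, all at least 2-fold lower in members, had 186 molecules in 26 members (23.2%), 110 of them in 1 cell, against 93.4% of other cells. Of 10 markers of neurons that contact the cerebrospinal fluid, 6 were at 0 and the list had 45 molecules in 21 members (18.8%, against 13.98% of other cells), nearly all from Gad1, Gad2 and Slc32a1, which other inhibitory neurons share. Of the peripheral neuron lists, Isl1, Prph, Avil and Scn10a of sensory neurons and Hand2, Th and Dbh of sympathetic neurons were at 0. None of these genes was found in more than 0.594% of other kept tail cells, so their 0 in members says little. Pou4f1, which sensory neurons also express, and the pan-neuronal Tubb3 were the listed sensory genes with a raised ratio. Of 9 Schwann and neural crest markers, 6 were at 0, Sox10 and Erbb3 among them, and the others summed to 6 molecules in 6 members. Sox10 and Erbb3 were found in 1.19% and 0.216% of other kept tail cells, so their 0 also says little. Of 10 genes induced by tissue dissociation, 8 were at least 2-fold lower in members, among them Jun (6.06-fold, 4.44 to 8.50) and Fos (2.31-fold, 2.005 to 2.68).

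A pair of members stood apart. A single cell, the deepest at 2318 molecules, held 52 of the 53 H19 and 42 of the 45 Igfbp5 molecules found in members, and it was the 1 member that Scrublet marked as a doublet among 7 marked tail cells. Another, of 1535 molecules, held 125 of 127 Hba-a1 and 57 of 58 Hbb-bs molecules, both haemoglobin genes of red cells. H19 and Igfbp5, which reached 13017 and 11148 CPM in the other tail cells, were 37.9-fold (28.9 to 50.6) and 38.2-fold (28.5 to 52.4) lower in the 112 members. Without the pair they had 1 and 3 molecules, 1957-fold (351 to 77286) and 559-fold (191 to 2709) lower. Both cells carried 4 rule genes.

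The 125 cells with 2 or more excluding genes also carried genes of immature neurons, with Dcx in 101 of them, and were set beside the members. Nhlh2 was found in 3 of those 125 cells, Ebf2 in 1 and the other 5 rule genes in none. The summed level of neurogenic factors was 9036 CPM in members and 9298 CPM in these cells, that of cytoskeleton genes 19135 against 30443 CPM and that of synaptic genes 2283 against 4075 CPM. Sox11 and Elavl3 differed little, with ratios of members over those cells of 1.06 (0.94 to 1.19) and 1.08 (0.88 to 1.33). Dcx and Tubb3 were somewhat lower in members, at 0.73 (0.60 to 0.87) and 0.71 (0.56 to 0.88). Gap43 had 626 molecules in 76 of the 125 cells and 14 in 9 members, 33.1-fold lower in members (19.6 to 60.9). Sox1 was found in 63 of the 125 cells and in 3 members, 22.2-fold lower (7.36 to 110). Grap2, Ddc, Clic5 and Rprm had 71 to 121 molecules in the 125 cells and none in members.

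In the other direction, Nrgn, Zic1, Lmx1b and Pou4f1 had 114, 89, 70 and 68 molecules in members and none in the 125 cells, at least 51.4-, 40.1-, 31.5- and 30.6-fold higher with the 0 set at 3 molecules (95% lower limits 41.1, 31.9, 24.97 and 24.2). Hba-a1, with 127 molecules against 0, also ranked among the highest because of the single cell described above. Hoxb8 had 145 molecules in members and 11 in the 125 cells, a ratio of 17.8 (9.67 to 36.5), and Hoxb13 had a ratio of 3.19 (2.27 to 4.53). Rbfox3 was higher in members (3.48, 1.83 to 6.97) and Stmn2 lower (3.42-fold, 2.47 to 4.83).

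**Figure D5:**
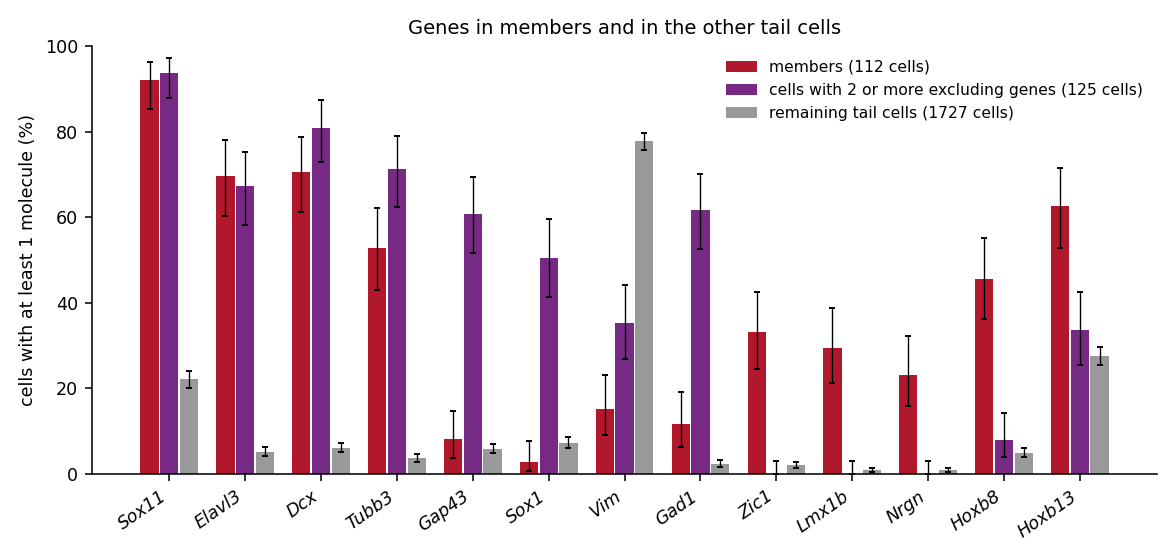
Share of cells with at least 1 molecule (y axis, percent, with 95% exact binomial interval) in the 112 members, the 125 cells with 2 or more excluding genes and the 1727 remaining tail cells. Sox11 and Elavl3 stand at like heights in the first and second group, Gap43 and Sox1 are higher in the second than in the first, and Vim is highest in the remaining cells.

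Nrgn, Uncx, Thsd7a and Cntn2 had higher levels in members with Robo3 than in members without it. Robo3 is a rule gene, and a member without it had to carry 2 of the other 6, so that both sides were chosen differently and the values are a description. The 62 with Robo3 had a median of 1462 molecules and the 50 without had 1317.5. Nrgn and Uncx were found in 26 and 19 of the 62 and in none of the 50, with 114 and 26 molecules, at least 27.5- and 6.26-fold higher with the 0 set at 3 molecules (95% lower limits 21.97 and 4.74). Thsd7a was found in 41 against 8 cells (6.24, 3.34 to 12.9), Cntn2 in 23 against 5 (6.36, 2.53 to 20.6) and Nav1, a microtubule-associated gene, in 41 against 13 (4.08, 2.29 to 7.80). Vim was lower with Robo3, with 7 molecules against 52, 10.3-fold (4.65 to 26.8), and 27 of the 52 lay in 5 Dbx1 cells and 12 in 1 other cell. Without the Dbx1 cells, a choice made after seeing the data, Vim was 6.37-fold lower (2.55 to 18.98). Also lower were Dbx1 (8 against 41 molecules, all 41 in those 5 cells), Chodl (6 against 32), Nkx6-1 (4 against 17), Gadd45g (8 against 25) and Btg2 (11 against 29). Dll3 was 2.55-fold lower with Robo3 (1.55 to 4.29). Hoxb8 (1.29, 0.91 to 1.85), Robo1 (1.20, 0.40 to 4.03) and Snap25 (1.29, 0.53 to 3.30) had intervals that spanned 1. Hba-a1, Hbb-bs, H19 and Igfbp5 also ranked among the 8 highest with Robo3, and nearly all their molecules came from the 2 cells that stood apart.

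Robo3 was found in 27 of the 37 cells with Lmx1b or Pou4f1, 18 of the 25 with Pax2 or Pax8, 4 of the 12 with Lhx3 or Lhx4 and 12 of the 37 others. Lbx1 was found in 15, 8, 0 and 6 of them. Members were chosen by 2 or more of the rule genes, which shapes how these genes are spread over the groups.

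In the brain library, 16 of 7988 kept cells met the same rule (0.200%, 0.115 to 0.325%), at a median of 1099 molecules. They met it with a part of the rule genes. Neurod1 was found in 15 of them, Nhlh1 in 10, Slc17a6 in 8 and Nhlh2 in 3, while Robo3, Ebf2 and Lbx1 were at 0, and Robo3 and Lbx1 had no molecule in any kept brain cell. Eomes, a factor of forebrain intermediate progenitors, was found in 8 of the 16, Prox1 in 7 and Tbr1 in 5. No molecule of a Hox gene of groups 4 to 13 was found in the 16 cells, where a count of 0 allows up to 165 CPM. Hoxb13 stood at 765 CPM in the tail members.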

How the data were processed

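Sox1-GFP+ cells of mouse tail and brain were captured with BD Rhapsody. The deposited files hold molecule counts per gene and cell that the authors made from their reads. Per the file headers, version 1.10.1 of the manufacturer's whole-transcriptome pipeline was used on GRCm38 with GENCODE vM19. The error-corrected counts were analysed. A barcode was kept with over 200 but under 4000 genes and a mitochondrial share below 40% (1964 of 2469 in tail, 7988 of 12111 in brain). Doublets were not removed: Scrublet marked 7 tail cells (0.356%), too few to be relied on.

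The members and gene lists were chosen with earlier results of these data known. Molecules were summed over cells and scaled to CPM. Shares carry Clopper-Pearson limits, and ratios carry limits from the exact binomial given the summed count, both tested on simulated data. Zero molecules were read as up to 3. Named genes are the rule and excluding genes, the leading 25 higher and 15 lower of those with 20 or more molecules, up to 4 on either side of each list and the leading 5 between groups of cells. The groups by factor, and further genes named between groups of cells, were chosen after their values were seen. Neighbours used the 2000 most variable genes, log-normalised to 10000 per cell, and 30 components in scanpy 1.11.5. Positions are from GENCODE vM21 and promoters from RefSeq, GRCm38.p6. Alternatives were another depth, threshold, scaling, filter and reference group.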

Additional observations from a re-analysis of the deposited data

How the results depend on the processing

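Of 127 recomputed values, 98 stayed within the counting interval of the reported value (for shares of genes 2-fold apart, within 1.5 times of it), 29 did not and 0 changed direction. Direction could be judged only for the recomputed list ratios and the Vim ratio. The Notch list, whose ratio of 1.18 turns direction under median-ratio scaling, was not among those recomputed. Requiring 3 rule genes left 85 members and 3 brain cells and put the progenitor list at 0.2967. Thinning each cell to 600 molecules left 81 members and 8 brain cells, with list ratios of 4.198 for synaptic genes, 0.2992 for progenitor genes, 2.644 for Hox groups 9 to 13 and 5.944 for Hox groups 4 to 8. In cells chosen without them, thinned shares (an alternative added after the data were seen) were 40.58% for Robo3, 29.17% for Nhlh1, 59.65% for Nhlh2, 14.86% for Neurod1, 21.13% for Slc17a6, 39.13% for Ebf2 and 11.69% for Lbx1. Median-ratio scaling gave 2.451 for neurogenic factors, 1.985 for cytoskeleton, 2.485 for synaptic genes, 1.129 for guidance receptors, 0.2528 for progenitor genes, 2.229 for Hox groups 9 to 13 and 5.241 for Hox groups 4 to 8. Without the cells with 2 or more excluding genes on the other side, neurogenic factors stood at 4.610, cytoskeleton at 4.155 and synaptic genes at 6.728. With no minimum, 47.67% of genes were at least 2-fold lower. Members made up 72.47% of 30 neighbours, and 80.42% of 15 with rule genes kept. Leaving out each rule gene in turn left 101 to 110 members. No paired analysis was possible because each tissue has 1 library. Without replicates, nothing here measures variation between animals, and genes at 0 may be present below 19.5 CPM.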

Other observations

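Robo3 and Nrgn, found together in 26 members, lie 111.2 kb apart on the minus strand of chromosome 9 (GRCm38). Nrgn was found in none of the 50 members without Robo3. The 26 cells with both had a median of 5 Robo3 molecules (1 to 17) at a median depth of 1508 molecules, and the 36 with Robo3 alone had 3 (1 to 11) at 1361.5. The genes between them were nearly absent: Msantd2 had 3 molecules in members with Robo3 and 5 in those without, Esam 1 and 0, and Vsig2 none. Robo4, 0.554 kb from Robo3, was at 0 in members. In the other tail cells Robo3 was found in 2 cells and Nrgn in 15, with 1 cell carrying both. The pair was noticed in these data, and no test was made.

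Among tail cells outside the rule, 20 had members as most of their nearest neighbours. Of these, 14 carried 1 rule gene and 6 none, Dcx was found in 18, Elavl3 in 15 and Pkd2l1 in 0. Pax2 was found in 5 of the 20, Lmx1b in 4 and Pou4f1 in 3.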
